A study of Mus musculus with 9 samples.

Results

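The 10 genes described here belong to the kidney's small vessels and were measured in whole kidneys of mice that lack Col4a3. They are Vegfa, Angpt1 and Angpt2 (secreted ligands), Kdr, Flt1 and Tek (their receptors), and Pecam1, Cdh5, Nos3 and Emcn (other genes of the endothelial cell). The 10 genes were listed by name, with earlier results of these data known. All 10 stood among the 22637 gene symbols of the tables and among the 17333 genes that passed the filter on low counts.

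The kidneys came from 129X1/SvJ mice aged 9 weeks, in 3 groups of 3 RNA-seq libraries. Wild-type mice (WT) had no treatment, Col4a3-/- mice were given PBS (KO_PBS), and Col4a3-/- mice were treated with a miR-21 inhibitor (KO_antimiR21); miR-21 is a microRNA that rises in injured kidney. Col4a3 encodes a type IV collagen chain of the glomerular basement membrane, and its loss models Alport syndrome, an inherited kidney disease. Each library is named by its group and replicate number. The labels give neither dose nor schedule, nor whether each library is a different mouse, so p-values cover the scatter among libraries only. The deposited names carry a different number for each library, and the chi-square per gene between replicates was 31.1 to 139.7, far above counting scatter.

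VEGF-A, made in the kidney mainly by podocytes and tubule cells, binds the receptors VEGFR2 (Kdr) and VEGFR1 (Flt1) on the endothelium. Signals through VEGFR2 keep capillaries alive and fenestrated, whereas VEGFR1 binds the ligand tightly and signals weakly. Angiopoietin-1 activates the endothelial receptor Tie2 (Tek) and steadies vessels. Angiopoietin-2 binds the same receptor and often opposes angiopoietin-1. Pecam1 and Cdh5 (VE-cadherin) encode adhesion molecules of endothelial junctions, Emcn encodes a sialomucin of capillaries and veins, and Nos3 encodes endothelial nitric oxide synthase.

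Sequences are given for the inhibited microRNA and for the only match to its full seed among the 10 genes. They are also given for the upstream regions of Vegfa and Tek, a ligand and a receptor that both passed the test below. The microRNA and upstream sequences are from RefSeq (assembly GRCm38.p6) and the UTR is from GENCODE vM21 on GRCm38, whereas the reads had been aligned to mm9. The mature miR-21 lies at chr11:86584120-86584141 on the minus strand, and its seed, bases 2 to 8, is in capitals.
mmu-miR-21a-5p: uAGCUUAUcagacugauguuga
The longest annotated 3' UTR of every one of the 10 genes was searched for the seed match ATAAGCT and for its extension ATAAGCTA, on the transcribed strand. Flt1 alone held either, once, at base 3233 of a 3' UTR of 3971 bases, with the longer match in capitals.
Flt1 3' UTR: agactaatgATAAGCTAtgagaacc
The shorter match was found in 7.83% of the 11781 tested genes with such a UTR, and the longer in 2.47%. Those UTRs had a median length of 1143 bases, against 3971 for Flt1, and the shares were not matched for length. Matches to fewer seed bases were not searched. The 250 bases before the annotated start are shown for Vegfa at chr17:46032378-46032627 (minus strand), with GC boxes in capitals, and for Tek at chr4:94739039-94739288 (plus strand), where none of the motifs searched was found.
Vegfa: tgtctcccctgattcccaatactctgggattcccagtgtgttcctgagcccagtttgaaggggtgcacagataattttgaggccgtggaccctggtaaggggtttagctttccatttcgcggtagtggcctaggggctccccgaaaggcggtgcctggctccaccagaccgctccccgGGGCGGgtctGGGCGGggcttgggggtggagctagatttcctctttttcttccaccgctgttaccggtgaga
Tek: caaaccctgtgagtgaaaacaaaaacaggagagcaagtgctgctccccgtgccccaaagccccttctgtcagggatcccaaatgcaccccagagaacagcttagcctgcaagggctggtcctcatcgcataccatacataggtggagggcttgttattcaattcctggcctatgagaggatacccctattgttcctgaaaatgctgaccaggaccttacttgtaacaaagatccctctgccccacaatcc
The motifs searched on both strands were the GC box GGGCGG, the hypoxia response core in its form ACGTG, the ETS-type letters TTCCGG and the TATA box TATAAA. They stood in 32.7%, 16.6%, 12% and 12.4% of 32851 promoters of that length. This window of Vegfa held 2 GC boxes and no other motif, and a second annotated Vegfa start had 1 GC box and 1 hypoxia core. Kdr had 2 GC boxes and 1 ETS-type match, Flt1 had 3 GC boxes and a TATA box, and Emcn had none. Guanine and cytosine made up 59.2% of the Vegfa window and 51.2% of the Tek window, against a median of 52.4% over all promoters. Other forms of these motifs, the hypoxia core among them, were not searched. A match describes letters and is not a measured binding site.

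Total expected counts were 26448275 to 31786624 per library. Levels are given as CPM, counts relative to a library total that is scaled by TMM, a normalization that sets most genes to no change. Col4a3 itself stood at 257 to 371 CPM in WT, at 44.3 to 94.3 in KO_PBS and at 70.5 to 138 in KO_antimiR21, so the knockout libraries all fell short of WT. By Y-linked transcripts WT 1 and WT 3 came from females and the other 7 libraries from males. A code in the deposited names was L4 for WT and for KO_PBS 1 and 2, and L5 for KO_PBS 3 and KO_antimiR21. WT thus differed from the knockouts by genotype, injection and mostly by sex, and these cannot be told apart in full.

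In KO_PBS kidneys Vegfa, Angpt2 and Tek fell relative to WT, and none of the 10 genes rose. Vegfa was 2.2-fold and Angpt2 2.37-fold lower, and Tek fell less. The test was the edgeR quasi-likelihood F test over all 17333 genes, with Benjamini-Hochberg adjustment and a threshold of 0.05. It called 24.4% of all genes, 14.6% as higher and 9.84% as lower, so the 3 of 10 genes called lower stand beside 9.84% of all genes. The count fell to 1 of 10 without WT 3 or without KO_PBS 1, where lower calls over all genes fell too, from 1705 to 978 and 669. With scaling by total count it was 2 of 10, where 904 of all genes were lower. With sex as a covariate it was 0 of 10, and 0 of all genes were called. The same 3 genes had no overlap between KO_PBS and WT libraries, as had 20.5% of all genes in that direction. The median log2 fold change of the 10 genes was -0.45, against -0.03 over all genes tested, and with scaling by total count -0.18 against 0.25. In whole tissue, fewer cells of a type and less RNA per cell cannot be told apart.

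Vegfa, the main ligand, stood at 214, 187 and 244 CPM in WT 1, 2 and 3. It stood at 85.5, 106 and 102 CPM in KO_PBS 1, 2 and 3, and at 169, 90.8 and 162 CPM in KO_antimiR21 1, 2 and 3. All 6 knockout libraries lay below all 3 WT libraries, and KO_antimiR21 2 lay inside the KO_PBS range while the other two KO_antimiR21 libraries lay above it. From WT (215 ± 28.8 CPM, SD, n = 3) to KO_PBS (97.9 ± 10.9, n = 3) the log2 fold change was -1.13 ± 0.24 (SE, adjusted p = 0.00999), a 2.2-fold lower level. The call held in 19 of 21 alternative fits, including libraries of code L4 alone (-1.16, adjusted p = 0.0146). It was lost with sex as a covariate (-0.93, adjusted p = 0.121) and in the male libraries alone (-0.91, adjusted p = 0.161), where WT is 1 library. A separate symbol of the tables, Vegf, carried 1.22% to 2.76% of Vegfa's expected count and fell too, by 1.46 ± 0.36 on the log2 scale (adjusted p = 0.0189). With both symbols summed, the change was -1.14 (adjusted p = 0.00978).

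Angpt2, the context-dependent Tie2 ligand, stood at 33.4, 39.8 and 56.4 CPM in WT 1, 2 and 3. It stood at 16.9, 20.8 and 17.0 CPM in KO_PBS and at 11.8, 15.1 and 25.4 CPM in KO_antimiR21, in replicate order. The 6 knockout libraries all lay below the WT range, and KO_antimiR21 spread over a wider range than KO_PBS. The log2 fold change from WT to KO_PBS was -1.24 ± 0.30 (adjusted p = 0.0172), a 2.37-fold lower level and the largest fall of the 10 genes. The call was lost in 5 of 21 alternatives. These were without WT 3 (-1.03, adjusted p = 0.0514), without KO_PBS 1 (-1.19, adjusted p = 0.0565), with sex as a covariate (-1.12, adjusted p = 0.139), in males alone (-1.10, adjusted p = 0.136) and with the library code as a covariate (-1.20, adjusted p = 0.0529). In libraries of code L4 alone it held (-1.19, adjusted p = 0.0284).

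Angpt1, the activating ligand, had levels of 13.1, 9.3 and 8.25 CPM in WT libraries, 7.34, 14.6 and 8.11 in KO_PBS, and 6.86, 8.34 and 11.3 in KO_antimiR21. The 3 groups overlapped, and the KO_PBS libraries spread almost from the lowest to the highest value of all. The log2 fold change from WT to KO_PBS was -0.03 ± 0.32 (adjusted p = 0.96), and its sign flipped to 0.25 when libraries were scaled by total count alone.

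Since both angiopoietins compete for Tie2, their count ratio within each library was compared, which needs no scaling between libraries. There were 2.55, 4.27 and 6.83 Angpt2 counts per Angpt1 count in WT, 2.3, 1.43 and 2.1 in KO_PBS, and 1.72, 1.81 and 2.25 in KO_antimiR21. No knockout library reached the WT range. The log2 ratio was 2.07 ± 0.71 (SD, n = 3) in WT, 0.93 ± 0.36 in KO_PBS and 0.93 ± 0.21 in KO_antimiR21. The difference was -1.14 in either knockout group, with a two-sided exact permutation p of 0.1, the smallest that 3 against 3 can give. Over the 27 tests of 9 such ratios the adjusted p was 0.6, so the design cannot call it.

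**Figure D1:**
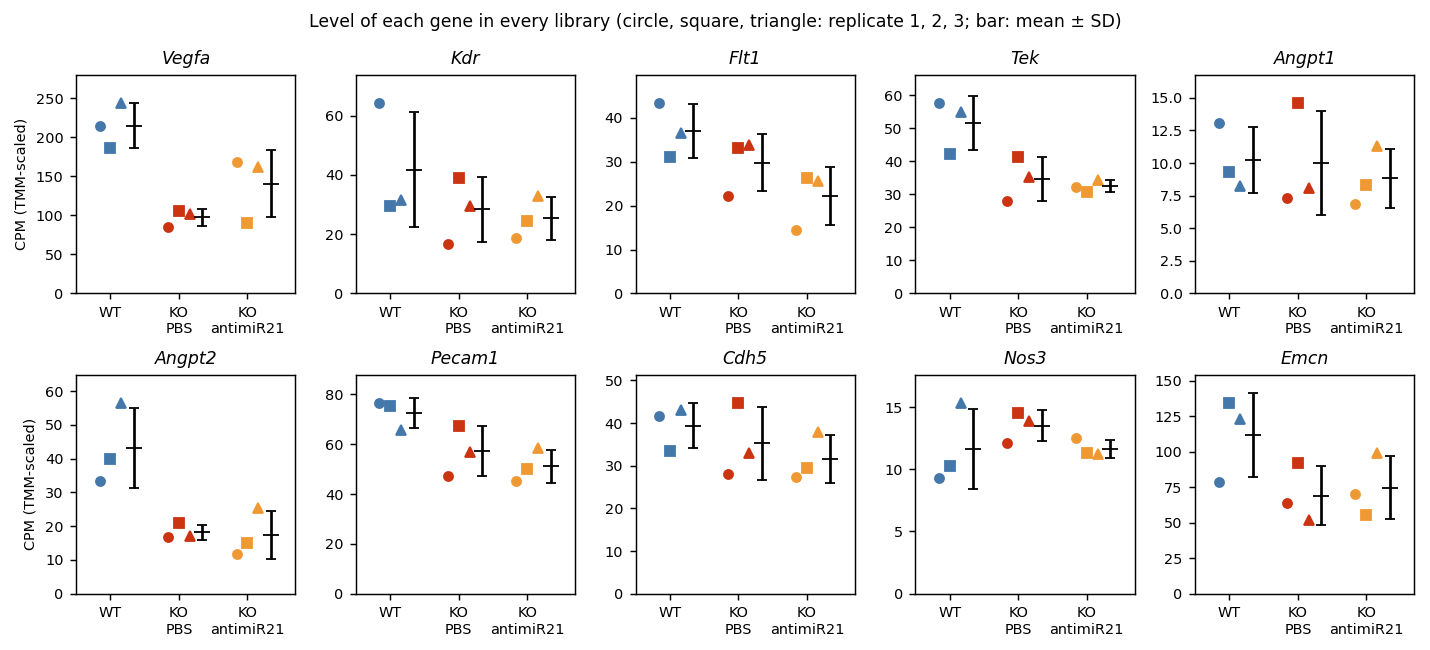
CPM (TMM-scaled) of the 10 genes in each library, 1 panel per gene. Circle, square and triangle are replicates 1, 2 and 3 of a group, and bars give the mean ± SD (n = 3). All knockout libraries of Vegfa and Angpt2 lie below all WT libraries, whereas Angpt1, Cdh5 and Nos3 overlap across the 3 groups.

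Tek, the angiopoietin receptor, had levels of 57.7, 42.3 and 54.9 CPM in WT libraries, 27.9, 41.2 and 35.3 in KO_PBS, and 32.4, 30.8 and 34.3 in KO_antimiR21. The highest KO_PBS value, 41.2, was close to the lowest WT value, 42.3, so the groups were apart by a narrow margin. The log2 fold change from WT to KO_PBS was -0.57 ± 0.17 (adjusted p = 0.0408). That call held in 7 of 21 alternatives only, with adjusted p from 0.017 to 0.54 over them. It was lost without WT 1 (adjusted p = 0.13), WT 3 (0.0925), KO_PBS 1 (0.119), KO_PBS 3 (0.0828), KO_antimiR21 1 (0.0534) or KO_antimiR21 3 (0.053). With scaling by total count the change was -0.30 (adjusted p = 0.216), in males alone -0.26 (adjusted p = 0.54), and in libraries of code L4 alone -0.58 (adjusted p = 0.137).

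Kdr, the main signalling receptor for VEGF-A, had levels of 64.2, 29.4 and 31.6 CPM in WT libraries, 16.7, 38.8 and 29.4 in KO_PBS, and 18.6, 24.4 and 32.8 in KO_antimiR21. WT 1 was far above the other libraries, and WT 2 and WT 3 lay inside the KO_PBS range. The log2 fold change from WT to KO_PBS was -0.56 ± 0.39 (adjusted p = 0.335), and -0.09 without WT 1. Flt1, the VEGF receptor with weak signalling, had levels of 43.4, 31.2 and 36.6 CPM in WT libraries, 22.3, 33.2 and 33.9 in KO_PBS, and 14.5, 26.3 and 25.6 in KO_antimiR21. Its WT and KO_PBS libraries overlapped, with a log2 fold change of -0.32 ± 0.26 (adjusted p = 0.419). The Flt1 to Kdr ratio overlapped between all groups, and its log2 difference from WT to KO_PBS was 0.22 (exact permutation p = 0.6).

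Apart from the receptors, none of the other 4 endothelial genes, Pecam1, Cdh5, Emcn and Nos3, passed the test in KO_PBS. Pecam1 had levels of 76.4, 75.4 and 65.6 CPM in WT libraries, 47.3, 67.5 and 56.7 in KO_PBS, and 45.2, 49.9 and 58.4 in KO_antimiR21, with a log2 fold change from WT to KO_PBS of -0.34 ± 0.16 (adjusted p = 0.153). Cdh5, largely restricted to endothelium, had levels of 41.6, 33.4 and 43.1 CPM in WT libraries, 28.1, 44.6 and 33.0 in KO_PBS, and 27.4, 29.5 and 38.0 in KO_antimiR21. Its groups overlapped, and the highest of the 9 values was KO_PBS 2. The log2 fold change was -0.16 ± 0.20 (adjusted p = 0.616), and 0.11 with scaling by total count.

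Emcn, the sialomucin gene, had levels of 78.4, 134 and 123 CPM in WT libraries, 63.6, 91.9 and 51.7 in KO_PBS, and 70.1, 55.2 and 98.9 in KO_antimiR21. WT 1 lay inside the knockout range while WT 2 and WT 3 lay above it, and the log2 fold change from WT to KO_PBS was -0.69 ± 0.29 (adjusted p = 0.122). Nos3, which makes nitric oxide in endothelium, had levels of 9.33, 10.3 and 15.3 CPM in WT libraries, 12.1, 14.5 and 13.9 in KO_PBS, and 12.5, 11.3 and 11.2 in KO_antimiR21. It alone of the 10 genes had a positive estimate, 0.21 ± 0.20 (adjusted p = 0.495), and its groups overlapped.

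Cdh5 served as a within-library reference for endothelial RNA. There were 1.39, 1.27 and 1.27 Tek counts per Cdh5 count in WT, 0.993, 0.924 and 1.07 in KO_PBS, and 1.18, 1.04 and 0.902 in KO_antimiR21. All knockout libraries were below all WT libraries, with log2 differences of -0.40 for KO_PBS and -0.34 for KO_antimiR21 (exact permutation p = 0.1 each, adjusted over the 27 tests 0.6). Tek alone separated in this way: the ratios of Kdr, Flt1, Pecam1, Nos3 and Emcn to Cdh5 overlapped between all groups. Their log2 differences from WT to KO_PBS were -0.37, -0.15, -0.17, 0.42 and -0.52.

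**Figure D2:**
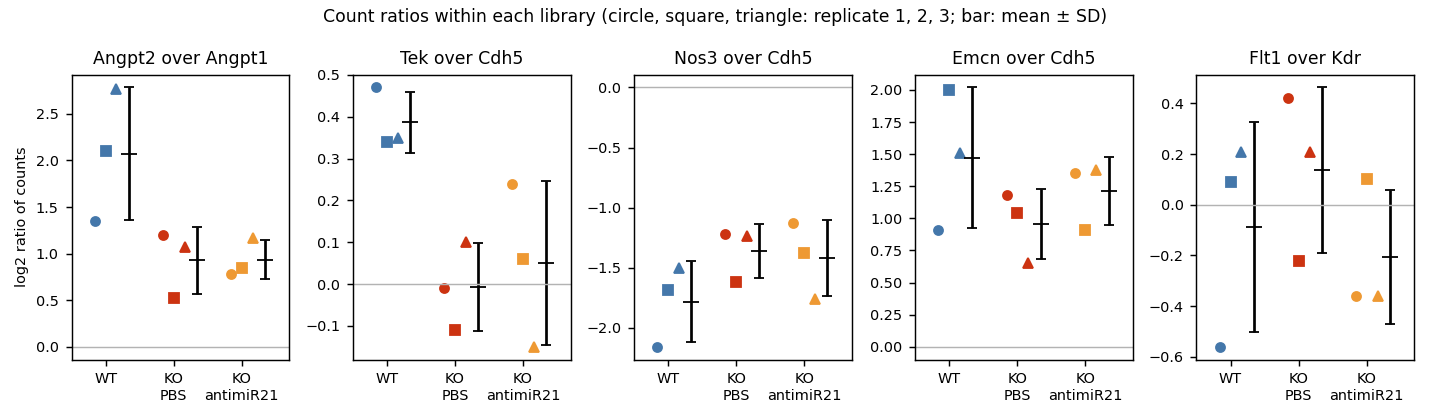
Log2 ratio of expected counts of gene pairs within each library (0.5 added to each count), 1 panel per pair. Circle, square and triangle are replicates 1, 2 and 3, and bars give the mean ± SD (n = 3). WT lies above both knockout groups for Angpt2 over Angpt1 and for Tek over Cdh5, and the groups overlap for the other three pairs.

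Between knockouts given the miR-21 inhibitor and knockouts given PBS, none of the 10 genes passed the test and all 10 overlapped. The share of all genes called was 0%, with 1207 genes at an unadjusted p under 0.05 and 19 genes called by DESeq2, none of them among the 10. The median log2 fold change was -0.16 against -0.01 over all genes, and 8 of 10 estimates were below 0. No overlap in the lower direction was seen for 6.88% of all genes and for none of these 10.

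Vegfa had the largest estimate, 0.52 ± 0.23 on the log2 scale (unadjusted p = 0.0523, adjusted p = 0.706), from 97.9 ± 10.9 CPM in KO_PBS to 140 ± 43.1 in KO_antimiR21 (n = 3 each). Here 2 libraries were high and 1 low: without KO_antimiR21 2 the estimate was 0.78 ± 0.16 (adjusted p = 0.139), and over the alternatives it ran from 0.37 to 0.78, with 0.46 in libraries of code L5 alone. KO_antimiR21 2 also had the lowest summed level of proximal tubule markers in its group, 4210 CPM against 6670 and 8070. Distal markers, from the thick ascending limb onward, did not follow Vegfa there, with sums of 4040, 5840 and 7070 CPM in KO_antimiR21 1, 2 and 3. The part of the tubule in the Vegfa values was not tested. Flt1, the one gene with a match to the full seed, had an estimate of -0.43 ± 0.26 (adjusted p = 0.744). Angpt2 (-0.07 ± 0.29, adjusted p = 0.984) and Tek (-0.10 ± 0.17, adjusted p = 0.94) gave estimates near 0.

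Compared with WT, knockouts given the inhibitor had Angpt2 lower and no other call among the 10 genes. This comparison called 7.15% of all genes, 6.72% higher and 0.427% lower. The 74 lower calls became 2 without KO_antimiR21 2, 16 without WT 3, 17 without KO_antimiR21 1, 23 without KO_PBS 2, 24 without KO_PBS 3, 33 without WT 1, 135 without KO_antimiR21 3 and 158 without WT 2. DESeq2 made 396. The log2 fold change of Angpt2 was -1.31 ± 0.30 (adjusted p = 0.0302), a 2.48-fold lower level. It held in 11 of 20 alternatives and was lost without WT 2 (adjusted p = 0.054), WT 3 (0.105), KO_PBS 2 (0.0528), KO_antimiR21 1 (0.089) or KO_antimiR21 2 (0.13). It was lost as well in the 6 libraries compared alone (0.0813), with sex as a covariate (0.278), in males alone (0.259) and with the code as a covariate (0.453), and the codes and these groups cannot be told apart.

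Of the 10 genes, 5, namely Vegfa, Flt1, Tek, Angpt2 and Pecam1, had all KO_antimiR21 libraries below all WT libraries, where 9.84% of all genes did. Tek, at -0.67 ± 0.17, just missed the threshold (adjusted p = 0.0515), as Vegfa did more widely (-0.61 ± 0.23, adjusted p = 0.179). Flt1 stood at -0.74 ± 0.26 (adjusted p = 0.142) and Pecam1 at -0.50 ± 0.16 (adjusted p = 0.107). The median over the 10 genes was -0.60, against -0.04 over all genes. Both knockout groups were set against the same WT libraries, so their changes are not independent.

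**Figure D3:**
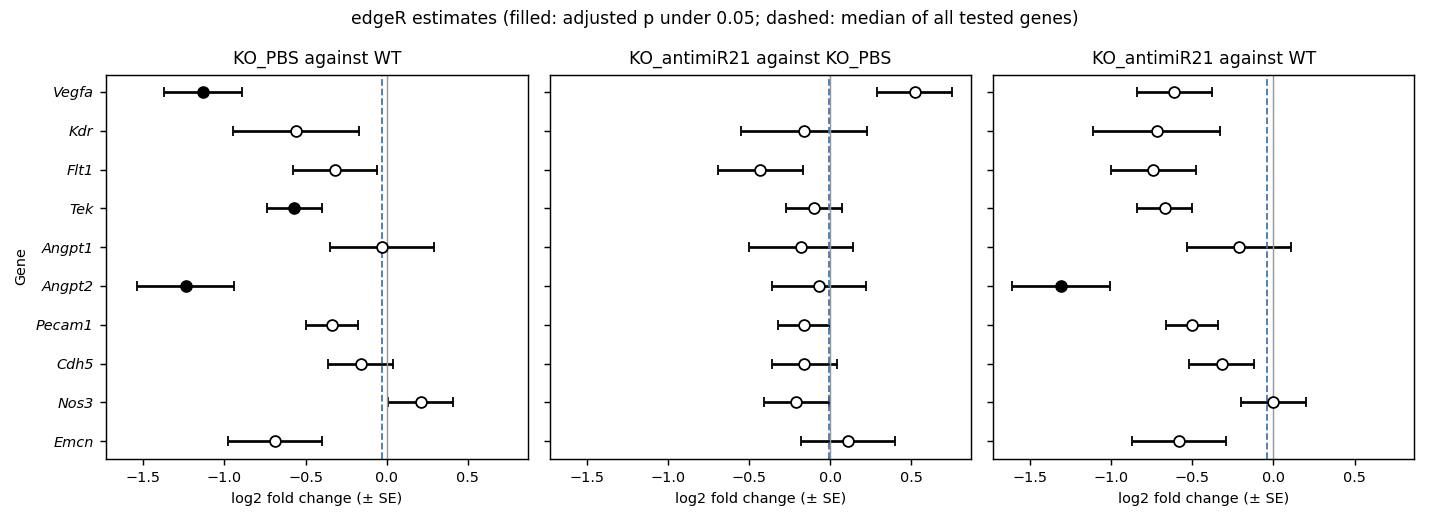
Log2 fold changes ± SE of the 10 genes in the 3 comparisons, from the edgeR fit on 9 libraries. Filled points had an adjusted p under 0.05, and the dashed line is the median of all genes tested. Vegfa, Angpt2 and Tek are filled in KO_PBS against WT, Angpt2 alone in KO_antimiR21 against WT, and none in KO_antimiR21 against KO_PBS.

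Levels were compared between genes per kilobase of the longest annotated coding transcript. In WT, Vegfa led at 62.3 ± 8.34 CPM per kilobase (SD, n = 3), followed by Emcn at 43.1 ± 11.3 and Pecam1 at 21.1 ± 1.72. The WT ranges of Vegfa and Emcn did not overlap, nor did those of Emcn and Pecam1. Angpt2 (12.1 ± 3.34), Tek (11.1 ± 1.77), Cdh5 (9.86 ± 1.32) and Kdr (7.04 ± 3.29) formed a middle group whose neighbours overlapped. Flt1 (5.38 ± 0.885) overlapped with Kdr, and Nos3 (2.82 ± 0.773) and Angpt1 (2.4 ± 0.597) were lowest and overlapped. In KO_PBS, Angpt2 stood at 5.13 ± 0.624 CPM per kilobase, below every Cdh5 value there (8.82 ± 2.12), whereas in WT the ranges of these genes overlapped. Vegfa (28.4 ± 3.17) and Emcn (26.7 ± 7.98) overlapped in KO_PBS.

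Likeness between genes was measured as the root mean square difference of log2 CPM after each gene was centred on its own mean, over 9 libraries and 12475 genes of sufficient level. The closest pair was Pecam1 and Cdh5, 0.169 log2 units apart, then Tek and Pecam1 at 0.183. Vegfa was 0.347 from its nearest of the 10, Tek, and 1193 other genes were nearer to it. Angpt2 and Nos3 were farthest apart, at 0.736.

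Among all genes, Tek lay closest to Clec14a (0.081), an endothelial C-type lectin gene, and next to Rbm35b (0.098). Vegfa lay closest to Ebp (0.03), a sterol isomerase gene, and Ndufb9 (0.074), a gene of respiratory complex I. Angpt2 had AK052712 (0.187) and Aqp3 (0.24), a water channel gene of the collecting duct, and Nos3 had the kinase gene Fyn (0.085). The nearest genes of Pecam1, Cdh5, Emcn, Flt1, Angpt1 and Kdr were Fam113a (0.087), Tmem166 (0.105), Phyhipl (0.134), Ddx3x (0.152), Sox13 (0.173) and Igsf11 (0.205). These distances come from 9 libraries that differed in depth and tissue makeup, and the part of either in the distances was not tested.

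Within the KO_PBS group, KO_PBS 1 was the lowest of its group for 9 of the 10 genes and KO_PBS 2 the highest for 9. KO_antimiR21 1 was the lowest of all 9 libraries for 5 genes. KO_PBS 1 also had the lowest summed proximal tubule markers, 1820 CPM against 4330 and 5350 in its group, and the largest TMM factor, 1.148.

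Of 8 other VEGF ligands, receptors, co-receptors and regulators, none passed the test from WT to KO_PBS (1 did in at least one fit that left out a library), and their median log2 fold change was 0.14. Vegfb, a VEGFR1 ligand, had -0.71 ± 0.23 (adjusted p = 0.0543), and Vegfc and Flt4, the ligand and receptor of lymphatic growth, had 0.55 and 0.42. Of 8 tested genes of the angiopoietin and Tie pathway, 2 rose and none fell, with a median of 0.30. Over all genes 14.6% rose and 9.84% fell, the shares beside this count and those of the lists below. Svep1, a large matrix protein gene linked to Tie signalling, rose by 1.41 ± 0.27 (adjusted p = 0.00764), from 11.6 to 18.8 CPM in WT to 26.1 to 50.6 in KO_PBS. Tnip2, whose protein binds an inhibitor of NF-kappaB, rose by 0.80 ± 0.20 (adjusted p = 0.0227), a call lost without WT 1, WT 2, KO_PBS 1 or KO_PBS 2 (adjusted p up to 0.075).

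Markers of all endothelium, 24 genes apart from the 10, served as a check of the tissue's endothelial RNA. All 24 were detected and tested, 1 rose, 2 fell and 21 did not pass, with a median of -0.32. The median was -0.05 with scaling by total count and -0.01 in males alone. Their summed level was 642 to 903 CPM in WT, 598 to 718 in KO_PBS and 528 to 641 in KO_antimiR21. WT and KO_PBS thus overlapped, while KO_antimiR21 lay below WT by a narrow margin. In KO_antimiR21 against WT none of the 24 passed, and 21 had estimates below 0, as had 54.2% of all genes. The median there was -0.33, or -0.19 with scaling by total count. Arhgef15 (-0.74 ± 0.20, adjusted p = 0.0288), an exchange factor gene of vessels, and Gpr116 (-0.80 ± 0.22, adjusted p = 0.0316), an adhesion receptor gene, fell. Both calls were lost with scaling by total count (adjusted p = 0.118 and 0.103). Arhgef15 was also lost without WT 1 or 3 and Gpr116 without WT 2 or 3, and both were lost without any 1 of the KO_PBS libraries (adjusted p up to 0.0846 and 0.0916). Ecscr, listed by its older symbol 1110006O17Rik, a gene of endothelial chemotaxis, rose by 1.24 ± 0.25 (adjusted p = 0.00961) and passed in all 9 fits that left out a library.

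The 17 genes of glomerular or other specialised endothelium split, with 2 higher and 2 lower and a median of -0.28, or -0.01 with scaling by total count. Vcam1 and Selp, leukocyte adhesion molecules of activated vessels, rose. Vcam1 had levels of 8.73, 28.8 and 6.88 CPM in WT libraries and of 275, 274 and 403 in KO_PBS, a log2 fold change of 4.42 ± 0.62 (adjusted p = 0.00208). Vcam1 is also made by injured tubule cells, so its source in whole kidney is not given by these values. Igfbp5, abundant in glomerular endothelium, fell from 797, 1150 and 1070 CPM to 146, 429 and 283 (-1.82 ± 0.47, adjusted p = 0.0241). That call was lost without WT 2, WT 3, KO_PBS 1 or KO_PBS 3 (adjusted p up to 0.0644). In each WT library Igfbp5 alone stood above the sum of the 24 endothelial markers (680, 642 and 903 CPM). Its source in whole kidney was not tested. The other gene that fell was Esm1, a secreted proteoglycan gene of endothelium, named here after its values were seen. It had levels of 25.3, 13.4 and 9.09 CPM in WT libraries, 7.15, 8.14 and 5.5 in KO_PBS, and 5.74, 5.41 and 8.31 in KO_antimiR21. No knockout library reached the WT range (KO_PBS -1.20 ± 0.37, adjusted p = 0.043), and 20.5% of all genes lay lower without overlap in KO_PBS. Esm1 lay just inside the threshold: it was lost in 8 of 9 fits that left out a library (all but WT 3, adjusted p up to 0.148), and with scaling by total count (0.0844).

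Of 15 genes around nitric oxide synthesis and its receptor, 5 rose and none fell, with a median of 0.71. Over all genes 14.6% rose, and this list too was chosen with earlier results of these data known. Ddah2, which degrades an inhibitor of nitric oxide synthases, rose by 1.17 ± 0.26 (adjusted p = 0.0141), and Gch1, needed for the cofactor tetrahydrobiopterin, by 1.08 ± 0.27 (adjusted p = 0.0214). Gucy1a3, a subunit of the nitric oxide receptor in mural cells, rose by 1.60 ± 0.41 (adjusted p = 0.0236). The other 2 were Gucy1b3, the partner subunit, and Nostrin, which binds the synthase, both named after their values were seen. Ddah2 passed in all 9 fits that left out a library. Gch1, Gucy1a3, Gucy1b3 and Nostrin lost their calls in 4, 4, 6 and 7 of them, each without KO_PBS 1 or KO_PBS 2 among others, so that 1 to 5 genes of the list passed.

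Of 10 angiogenesis inhibitors 7 rose and none fell, with a median of 1.22, and 5 to 8 rose when 1 library was left out (5 without KO_PBS 2). Over all genes 14.6% rose, and the list was chosen with earlier results of these data known. Its summed level overlapped, at 1810 to 2790 CPM in WT and 2230 to 2700 in KO_PBS. Timp3, the gene of the list with the highest level, had 2310, 1750 and 1350 CPM in WT libraries and 993, 1450 and 1410 in KO_PBS. Thbs2, an antiangiogenic matrix protein, had 3.33, 3.33 and 2.17 CPM in WT libraries and 13.7, 16.1 and 15.2 in KO_PBS (2.34 ± 0.34, adjusted p = 0.00245). Adamts1, a protease that binds VEGF, rose by 2.29 ± 0.28 (adjusted p = 0.00149), and Col18a1, the source of endostatin, by 1.40 ± 0.22 (adjusted p = 0.00322). In KO_antimiR21 3 of the 10 passed as higher than WT, and none passed against KO_PBS.

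Vegfa is itself induced by hypoxia, and other hypoxia-induced genes went both ways: 2 of 14 rose and 3 fell, with a median of -0.17, or 0.11 with scaling by total count. The hexokinase gene Hk2 rose by 2.71 ± 0.56 (adjusted p = 0.00995). Bnip3, a mitochondrial hypoxia target, fell from 167, 150 and 154 CPM to 72.9, 81.6 and 98.6 (-0.90 ± 0.18, adjusted p = 0.00831). Of 8 hypoxia-inducible factors and their regulators, 1 fell, the oxygen sensor gene Egln1 (-0.66 ± 0.16, adjusted p = 0.0198, or 0.0722 with scaling by total count), and it was lost without WT 1, WT 2, KO_PBS 1 or KO_PBS 3 (adjusted p up to 0.0647). The median of that list was -0.23, or 0.05 with scaling by total count.

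Markers of the cells that make or meet these ligands were counted in the same way, beside 14.6% of all genes higher and 9.84% lower. No listed gene was at 0 in all libraries. Of 12 podocyte markers, 3 rose (among them Plce1 and Ptpro, the latter lost in 8 of 9 fits that left out a library) and none fell, and their summed level of 361 to 624 CPM in WT overlapped with 468 to 649 in KO_PBS. Of 10 proximal tubule markers 6 fell, and of 8 thick ascending limb and distal tubule markers 5 fell, each with a median of -1.46. The distal count was 5 in every fit that left out a library, and the proximal one 2 to 6 (2 without WT 1 or without KO_PBS 2). Proximal markers summed to 9670 to 14500 CPM in WT, 1820 to 5350 in KO_PBS and 4210 to 8070 in KO_antimiR21, and the tubule's part in the lower Vegfa and Angpt2 was not tested.

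Of 12 pericyte and mural cell markers, 5 rose and none fell, but 6 had estimates below 0 and the median was 0.27. The contractile gene Acta2 (1.85 ± 0.29, adjusted p = 0.00333) had the lowest p. Abcc9, a channel subunit gene of pericytes, had -0.95 ± 0.31 (adjusted p = 0.0558) and is named after its values were seen. The sum of the list, in which Acta2 alone went from 37.0 to 46.9 CPM in WT to 101 to 200 in KO_PBS, was 276 to 304 CPM in WT, 455 to 588 in KO_PBS and 283 to 378 in KO_antimiR21. Of 11 tested leukocyte and platelet markers 9 rose and 1 fell, and their sum went from 33.6 to 57.4 CPM in WT to 294 to 326 in KO_PBS. Pecam1 and Tek are made by some leukocytes as well, and that share was not tested. Of 6 tested lymphatic markers 1 rose, Pdpn, which podocytes also make, and 1 fell, Reln (lost without KO_PBS 2, adjusted p = 0.0594), and their sums overlapped. No gene of any list passed the test between KO_antimiR21 and KO_PBS, and none passed it in KO_PBS against WT with sex as a covariate or in males alone.

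**Figure D4:**
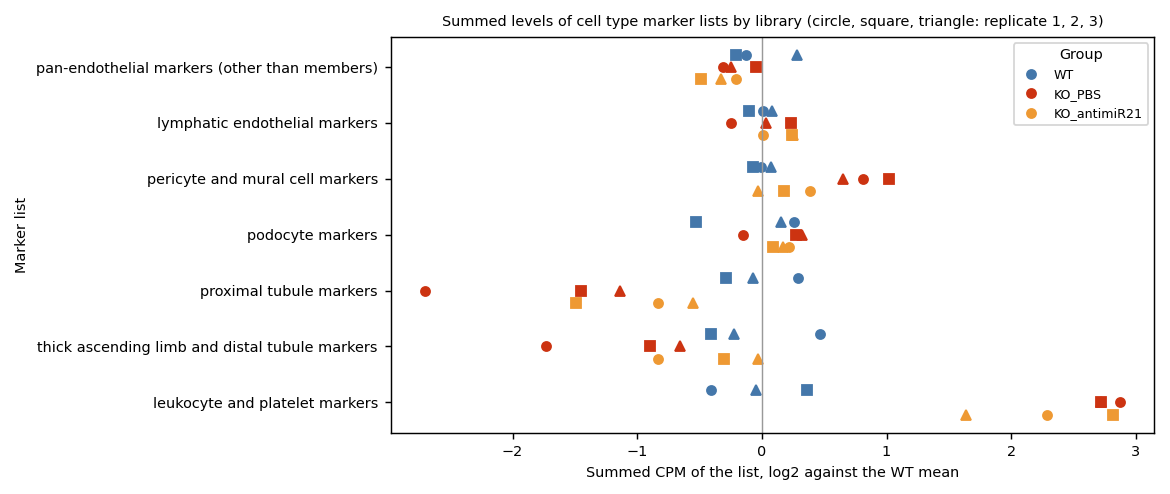
Summed CPM of marker lists in each library, as log2 relative to the WT mean. Circle, square and triangle are replicates 1, 2 and 3 of a group. Leukocyte and platelet markers lie above WT and proximal tubule markers below it in all knockout libraries, while podocyte, lymphatic and pan-endothelial markers of KO_PBS overlap with WT.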

How the data were processed

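RNA of whole kidney was measured in 9 libraries, 3 per group, prepared by TruSeq v2, per the labels' protocols. The authors deposited an expected count per gene symbol and library, made with Bowtie and RSEM against mm9 per the submitters' processing notes. Versions, annotation and strand are not given in the sources used here. Overlapping or antisense genes were therefore not separated, and RSEM shares reads between near-identical copies. The authors also deposited a log2 matrix, which equalled log2 CPM plus 1 constant per library.

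Expected counts were rounded to whole numbers. The filterByExpr rule of edgeR kept 17333 genes, which were fitted over all 9 libraries by group mean with TMM scaling and the quasi-likelihood F test, two-sided, with Benjamini-Hochberg adjustment over all tested genes. A gene was called at an adjusted p under 0.05. Fold changes are log2 estimate ± SE, and CPM is mean ± SD. The script was tested on simulated counts. The 10 genes had expected counts of 177.01 to 6072.48 per library, so counting error is small beside the spread between libraries. No pair of replicates held identical values. Groups came from titles and descriptions. Sex was called from Y-linked genes (at least 10 CPM summed as male).

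Members, 14 gene lists and the rule for named genes (the 10 genes, and from each list the 3 with the lowest p in KO_PBS against WT) were chosen with earlier results of these data known. A few genes taken by that rule are not reported here. Older symbols were matched for 4 of the 164 list genes. Ratios added 0.5 to each count and used a two-sided exact permutation test. Likeness used genes whose mean log2 CPM was 2 or more. UTRs and transcript lengths were from GENCODE vM21. Of the 10 genes 5 had promoter entries in RefSeq. Alternatives were other scalings, no filter, DESeq2, limma on the deposited log2 values, leaving out each library, the 6 libraries compared alone, sex, library code and the replicate number. Summing Vegfa with Vegf was added after the data were seen. Tests ran in edgeR 4.0.16, with DESeq2 1.42.0 and limma 3.58.1 as alternatives (R 4.3.3), and tables were made with pandas 2.3.3 under Python 3.11.15.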

Additional observations from a re-analysis of the deposited data

How the results depend on the processing

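With sex as a covariate, and in male libraries alone, 0 genes were called in KO_PBS against WT (4393 and 4397 at an unadjusted p under 0.05) and 0 in KO_antimiR21 against WT (2117 and 2189), so 0 of the 10 genes were called in either. With the library code as a covariate 1 of the 10 was called in KO_PBS against WT, and 0 genes in KO_antimiR21 against WT (2032 unadjusted), 0 of them among the 10. DESeq2 called 19 genes between the knockout groups and 2013 in KO_antimiR21 against WT, 2 of them among the 10, and the 6 libraries of that comparison alone gave 707 and 0. Leaving out 1 library gave 2425 to 4335 genes and 1 to 3 of the 10 in KO_PBS against WT, and 666 to 1602 genes and 0 to 2 of the 10 in KO_antimiR21 against WT. Scaling by total count shifted the median of all genes in KO_PBS against WT from -0.03 to 0.25 and split the calls into 3759 higher and 904 lower, against 2527 and 1705.

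Estimates that changed sign were all of genes not called. In KO_PBS against WT, Angpt1 gave 0.25 with total counts, 0.03 with upper quartiles, 0.1 with sex, 0.13 in males, and 0.1 with the code or in code L4 alone. There Cdh5 gave 0.11 with total counts, 0.08 with sex and 0.1 in males. Between the knockout groups, Angpt1 gave 0.12 and Angpt2 0.03 with the code or in code L5 alone, and Emcn -0.03 with total counts. In KO_antimiR21 against WT, the code gave 0.22 for Angpt1, -0.06 for Nos3 and 0.01 for Emcn. Leaving out 1 library moved Angpt1 from -0.4 to 0.21 in KO_PBS against WT. Between the knockout groups it moved Kdr from -0.41 to 0.14, Tek from -0.21 to 0.04, Angpt1 from -0.37 to 0.19, Angpt2 from -0.42 to 0.15, Cdh5 from -0.28 to 0.05 and Emcn from -0.12 to 0.37. In KO_antimiR21 against WT it moved Angpt1 from -0.42 to 0.03 and Nos3 from -0.11 to 0.24. The causes were not tested. The labels do not say that replicate numbers pair the samples. Same-numbered deviations from the group mean correlated from -0.365 to 0.438, and not every library correlated best with its own number. Deviations within a group of 3 depend on each other, so these correlations cannot exclude pairing. With the replicate number as a block, 3211, 0 and 924 genes were called in the 3 comparisons and 2, 0 and 1 of the 10, with Tek the one lost (adjusted p = 0.0868).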
